A study of Homo sapiens with 10 samples.

Results

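The transcripts of 10 plasma membrane amino acid transporters were followed in HCT116 cells, a human colorectal carcinoma line, with and without CD276. SLC1A3 was chosen for its fall in the knockout, so its difference between the groups is given as a description with no test. The other 9 transporters, SLC1A1, SLC1A2, SLC1A4, SLC1A5, SLC7A5, SLC7A11, SLC3A2, SLC38A1 and SLC38A2, were listed by what they carry, with earlier results of these data known. All 10 are among the 58050 genes of the expression table, and 9 of them had a mean of at least 1 TPM and were among the 13581 genes tested.

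TPM, the unit of the values, are read shares divided by transcript length, so levels of different genes can be set side by side. The 10 libraries were made from the RNA of 5 HCT116-WT and 5 HCT116-CD276KO cultures, all grown in McCoy's 5A medium with fetal calf serum. The knockout was made with Cas9 and a CD276 guide RNA, and 1 clone, grown from a single cell, gave its 5 cultures. The protocol also names a scrambled guide RNA as a control, but not whether the HCT116-WT cultures had received it. The p-values therefore measure the spread between cultures, and the clone and the genotype cannot be told apart.

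Glutamate and aspartate are taken up against a steep gradient by the SLC1 carriers SLC1A1 (EAAT3), SLC1A2 (EAAT2) and SLC1A3 (EAAT1, also called GLAST), which couple the movement of the substrate to sodium and potassium ions. SLC1A4 and SLC1A5 of the same family exchange small neutral amino acids, among them glutamine for SLC1A5. The heavy chain SLC3A2 brings light chains of the SLC7 family to the cell surface: with SLC7A5 it imports leucine and other large neutral amino acids, and with SLC7A11 it imports cystine in exchange for glutamate. SLC38A1 and SLC38A2 take up glutamine and alanine with sodium, and SLC38A2 is known to rise when amino acids are short. SLC1A3 is best known from astrocytes, where it clears glutamate, and from tumour cells, in which aspartate supply can depend on it.

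CD276 itself was at 49.3, 42.0, 53.6, 38.1 and 43.3 TPM in HCT116-WT cultures 1 to 5 and at 4.40, 7.42, 5.79, 4.79 and 4.89 TPM in HCT116-CD276KO, and fell by 2.85 on the log2 scale (adjusted p = 1.39e-07 in limma). Of 7 epithelial and colonic markers, VIL1 was at or near 0 in both groups and CDX2 had a mean of 8.91 ± 2.00 TPM (SD, n = 5) in HCT116-WT and 9.27 ± 1.12 (n = 5) in HCT116-CD276KO. The other 5, EPCAM, KRT8, KRT18, KRT19 and CDH1, were all lower in the knockout, and their summed level with VIL1 and CDX2 was 4180 to 4950 TPM against 3320 to 3780 TPM. Of the 6 markers tested, these 5 passed an adjusted p of 0.05 in limma, against 4.09% of all genes called lower. All 5 also passed with each library's trend with transcript length and GC content removed. After quantile normalization 4 passed, and after median-of-ratios scaling 1, CDH1. With single libraries left out the adjusted p reached 0.0909 for EPCAM and 0.119 for KRT19, while KRT8, KRT18 and CDH1 passed each time. CDH1, the adhesion molecule E-cadherin, had the widest difference of the 5 on the log2 scale (-1.07), with a mean of 42.7 ± 4.92 TPM against 20.4 ± 5.73 TPM (SD, n = 5 each). Leukocyte markers summed to at most 0.77 TPM in any library and astrocyte markers to at most 0.71 TPM. Of 6 fibroblast markers only COL1A1 passed 1 TPM, with 7.312 ± 1.088 TPM in HCT116-WT and 5.568 ± 1.203 TPM in HCT116-CD276KO (SD, n = 5 each). The fall of SLC1A3 and the lower epithelial markers stand side by side in the same clone, and the part of the one in the other was not tested. In bulk RNA, fewer cells with a transcript and less of it per cell cannot be told apart.

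SLC1A3 (ENSG00000079215) lies on the forward strand at chr5:36596588-36688334 of hg38, and its canonical transcript has 10 exons and 3919 bases. The letters before its outermost annotated start are shown because the drop of SLC1A3 is the widest difference among the 10 transporters. The stretch is the 250 bases of RefSeq's window at chr5:36596338-36596587 (GRCh38.p14, forward strand), written 5′ to 3′, and the capitals mark TGATGCAAA, a match to the amino acid response letters TGATGNAAN that begins 220 bases before the start.
SLC1A3 window: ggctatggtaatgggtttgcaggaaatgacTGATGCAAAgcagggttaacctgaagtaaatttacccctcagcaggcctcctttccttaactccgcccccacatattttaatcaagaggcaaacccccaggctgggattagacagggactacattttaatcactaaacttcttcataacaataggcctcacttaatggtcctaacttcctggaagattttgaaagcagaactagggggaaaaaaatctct

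The same 9 letters were searched on both strands of the 300 bases around each RefSeq start, from 250 before it. RefSeq windows were at hand for 8 of the 10 transporters, all but SLC1A2 and SLC7A11, 16 windows in all. Of these windows 5, each of another gene, held the letters. No window of SLC1A1, SLC7A5 or SLC38A2 did, and SLC1A3 had them in 1 of its 3 windows. The letters were in 1268 of all 35116 windows, or 3.61%. The surroundings of the 5 matches are printed to show where the members resemble SLC1A3, with the match in capitals and the sequence 5′ to 3′ along the strand of the gene, so that a match on the opposite strand reads as its complement. The SLC1A4 match (chr2:64989381-64989409) begins 8 bases before its RefSeq start, that of SLC38A1 (chr12:46266502-46266530, reverse strand) 4 bases and that of SLC1A5 (chr19:46784893-46784921, reverse strand) 97 bases before it, and the SLC3A2 match (chr11:62881725-62881748) lies just after one. These 4 starts are further within the genes than the outermost starts of GENCODE, and only the SLC1A3 window is at the outermost start.
SLC1A3: aggaaatgacTGATGCAAAgcagggttaa
SLC1A4: gcggctcccgTTTGCATCAtctccagccg
SLC1A5: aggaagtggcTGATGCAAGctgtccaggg
SLC38A1: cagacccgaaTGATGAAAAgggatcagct
SLC3A2: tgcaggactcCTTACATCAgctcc
The capitals of SLC1A4 are the reverse complement of those of SLC1A3. A match describes letters only, and nothing on binding was measured.

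In HCT116-WT, SLC1A3 was at 16.05, 14.48, 12.99, 12.90 and 17.79 TPM in cultures 1 to 5, with a mean of 14.8 ± 2.09 TPM (SD, n = 5). In HCT116-CD276KO it was at 5.43, 3.42, 5.08, 5.62 and 5.17 TPM, with a mean of 4.94 ± 0.878 TPM (SD, n = 5). The lowest HCT116-WT culture thus stood above the highest knockout culture by more than the whole range of either group, and the knockout mean was 33.3% of that of HCT116-WT. On log2(TPM + 1) the transcript fell by 1.42, and the log2 ratio of the mean TPM was -1.59. This difference is the one SLC1A3 was selected on. It lay between -1.46 and -1.32 when each culture was left out in turn. With each library's trend with transcript length and GC content removed it was -1.28. Over all 10 libraries 38.1% of the tested genes had a lower mean than SLC1A3, so the gene was of middle abundance in these cells.

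SLC1A1, the other glutamate carrier with a measurable transcript, was at 8.39, 6.35, 6.41, 6.68 and 8.57 TPM in HCT116-WT and at 9.86, 7.25, 7.82, 8.84 and 8.98 TPM in HCT116-CD276KO. The groups overlapped, with 3 knockout cultures above all HCT116-WT cultures and none below them. The means were 7.28 ± 1.10 and 8.55 ± 1.03 TPM (SD, n = 5 each), a log2 fold change of 0.21 ± 0.11 (SE) with an adjusted p of 0.277 in limma. SLC1A2, the main carrier of brain glutamate, was at or below 0.23 TPM in every library and was not tested.

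**Figure D1:**
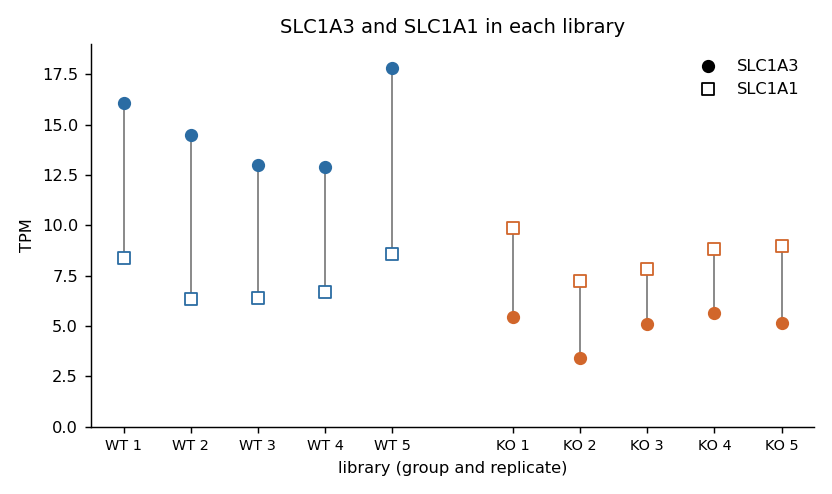
TPM of SLC1A3 (filled circles) and SLC1A1 (open squares) in each of the 5 HCT116-WT (WT, blue) and 5 HCT116-CD276KO (KO, orange) libraries, joined by a line within a library. SLC1A3 is above SLC1A1 in each HCT116-WT library and below it in each HCT116-CD276KO library.

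The order of both glutamate carriers was turned around in the knockout, as the plot of SLC1A3 and SLC1A1 by library shows. There were 1.91 to 2.28 SLC1A3 transcripts for each SLC1A1 transcript in HCT116-WT and 0.472 to 0.65 in HCT116-CD276KO. SLC1A3 made up 66.8% of the summed TPM of SLC1A1, SLC1A2 and SLC1A3 in HCT116-WT (range 65.5 to 68.8%) and 36.2% in HCT116-CD276KO (31.8 to 39.2%). The share of SLC1A1 went from 32.7% to 63.1%. The sum itself had a mean of 22.2 TPM in HCT116-WT and 13.6 TPM in HCT116-CD276KO, and its ranges, 19.5 to 26.4 and 10.7 to 15.4 TPM, were apart. As SLC1A3 enters each of these values, they too are descriptions.

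The neutral exchangers of the same family differed by less. SLC1A5, the glutamine exchanger, was at 118, 112, 131, 112 and 120 TPM in HCT116-WT and at 104, 118, 96.1, 106 and 112 TPM in HCT116-CD276KO. In the knockout 3 cultures were below all HCT116-WT cultures, and the means of 118.5 ± 7.86 and 107.3 ± 8.19 TPM (SD, n = 5 each) gave a log2 fold change of -0.14 ± 0.07 (SE, adjusted p = 0.25 in limma). SLC1A5 held 82.9% of the summed TPM of SLC1A1 to SLC1A5 in HCT116-WT and 86.7% in HCT116-CD276KO. SLC1A4, which exchanges alanine, serine, cysteine and threonine, was at 3.06, 2.12, 2.16, 1.89 and 1.95 TPM in HCT116-WT and at 3.29, 2.41, 1.79, 3.43 and 3.06 TPM in HCT116-CD276KO. Its groups overlapped and the log2 fold change was 0.22 ± 0.15 (SE, adjusted p = 0.384 in limma).

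SLC3A2, the shared heavy chain, was among the most abundant transcripts of the cells. It was at 265, 253, 292, 265 and 275 TPM in HCT116-WT and at 273, 329, 283, 279 and 280 TPM in HCT116-CD276KO, with 1 knockout culture above all others. The means of 269.8 ± 14.7 and 288.8 ± 22.6 TPM (SD, n = 5 each) gave a log2 fold change of 0.10 ± 0.06 (SE, adjusted p = 0.381 in limma). SLC7A5, its leucine-carrying light chain, was at 245, 215, 220, 210 and 236 TPM in HCT116-WT and at 186, 212, 161, 193 and 205 TPM in HCT116-CD276KO. In the knockout 4 cultures were below all HCT116-WT cultures, and the fifth was between them. The log2 fold change of SLC7A5 was -0.24 ± 0.08 (SE), with a p of 0.0113 and an adjusted p of 0.114 in limma.

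SLC7A11, the cystine and glutamate exchanger, was at 12.95, 11.0, 8.77, 8.85 and 10.6 TPM in HCT116-WT and at 13.6, 7.05, 8.36, 10.5 and 12.9 TPM in HCT116-CD276KO. The knockout range enclosed that of HCT116-WT, and the means were 10.4 ± 1.73 and 10.5 ± 2.82 TPM (SD, n = 5 each). Its log2 fold change was -0.02 with a 95% interval from -0.39 to 0.35 (adjusted p = 0.962 in limma). The interval, which is not a limit of detection, holds values of either sign, and the sign turned in other settings. Among the SLC7 light chains that pair with SLC3A2, SLC7A5 held 84.4% of the summed TPM in HCT116-WT and 83.7% in HCT116-CD276KO, and SLC7A11 3.89% and 4.58%.

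SLC38A2, the sodium-coupled glutamine and alanine carrier, was the most abundant of the 10 transporters, above 98.3% of all tested genes. It was at 794, 732, 611, 612 and 793 TPM in HCT116-WT and at 642, 374, 371, 518 and 586 TPM in HCT116-CD276KO. In the knockout 4 cultures were below all HCT116-WT cultures, while culture 1 was within their range. The means of 708.4 ± 91.98 and 498.0 ± 123.0 TPM (SD, n = 5 each) gave a log2 fold change of -0.53 ± 0.16 (SE), with a p of 0.0059 and an adjusted p of 0.0826 in limma. Without knockout culture 1, the one within the HCT116-WT range, the adjusted p in limma was 0.0367. With any other single library left out it was between 0.0625 and 0.192.

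SLC38A1, encoded next to SLC38A2 on chromosome 12 (chr12:46183063-46270017 and chr12:46358188-46372773, both on the reverse strand), was at 95.8, 88.6, 69.0, 79.0 and 89.7 TPM in HCT116-WT. In HCT116-CD276KO it was at 80.8, 46.0, 54.8, 73.0 and 89.2 TPM. In the knockout 2 cultures were below all HCT116-WT cultures, and the log2 fold change was -0.32 ± 0.17 (SE, adjusted p = 0.274 in limma). Knockout cultures 2 and 3 were the lowest in both SLC38 genes.

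In HCT116-WT the order of mean TPM was SLC38A2, SLC3A2, SLC7A5, SLC1A5, SLC38A1, SLC1A3, SLC7A11, SLC1A1, SLC1A4 and SLC1A2. Only SLC1A3 and SLC7A11 overlapped with their neighbour in this order. In HCT116-CD276KO the first 5 and the last 2 genes kept their places, and SLC7A11 and SLC1A1 came before SLC1A3. There the ranges of SLC7A11 and SLC1A1 overlapped, as did those of SLC1A3 and SLC1A4. The plot of TPM by library shows the span of the family, from under 1 TPM for SLC1A2 to 794 TPM for SLC38A2.

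**Figure D2:**
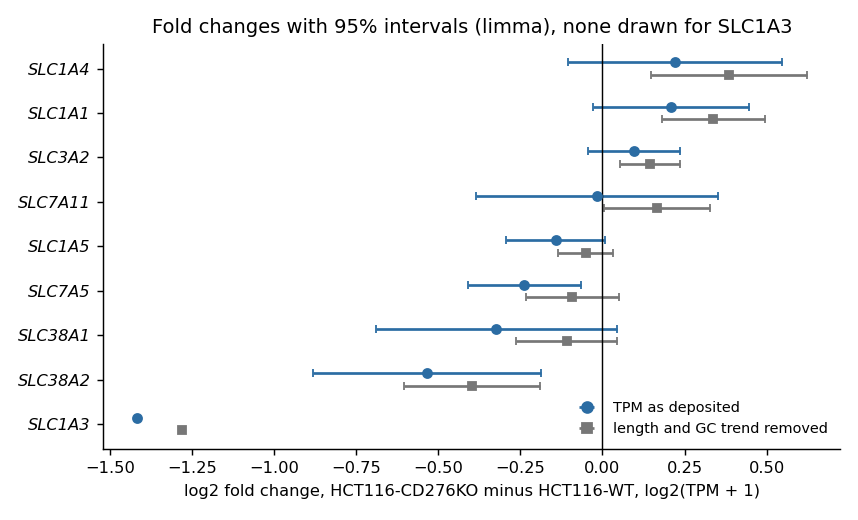
Log2 fold change of log2(TPM + 1), HCT116-CD276KO minus HCT116-WT, of the 9 tested transporters from TPM as deposited (circles) and after removal of each library's trend with transcript length and GC content (squares), with the 95% interval of limma. SLC1A3 was selected on this difference and has no interval; of the other 8, the interval from deposited TPM leaves out 0 for SLC7A5 and SLC38A2.

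Of the 8 tested transporters other than SLC1A3, 0 passed an adjusted p of 0.05 in limma, against 4.87% of all genes tested, 4.09% lower and 0.781% higher in the knockout. At an unadjusted p under 0.05 there were 2 of 8, SLC7A5 and SLC38A2, against 21.9% of all genes. The groups were apart in 0 of the 8, against 7.61% of all genes. These shares are close to or below the background, and the median log2 fold change of the 8 was -0.08, beside -0.09 over all genes. With the trend with length and GC content removed 3 of the 8 passed, SLC1A1 (0.34) and SLC1A4 (0.39) higher and SLC38A2 (-0.40) lower, against 9.64% of all genes in that setting. The plot of fold changes shows that this removal moved all 9 values upward and narrowed the intervals. The median over all genes also moved upward with it, from -0.0857 to 0.0127. Under quantile normalization, which uses neither length nor GC content, SLC1A1 was at 0.345.

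The libraries differed in their trends with transcript composition, and in some of them the transporters moved with these trends. SLC1A5, SLC7A5 and SLC3A2 have canonical transcripts of 57.8 to 61.3% GC, and SLC1A1, SLC1A3, SLC7A11, SLC38A1 and SLC38A2 of 35.4 to 43.9%, a division at 55% and 45% made after the values were seen. In HCT116-WT culture 3 the 3 GC-rich transporters lay on average 0.08 above their group mean on log2(TPM + 1) and the 5 AT-rich ones -0.20 from theirs. In HCT116-CD276KO culture 2 these values were 0.16 and -0.40. The deviation of all tested genes correlated with GC content at a Spearman's rho of 0.607 and 0.484 in these libraries, across genes. In HCT116-CD276KO cultures 2 and 3 it correlated with transcript length at a rho of -0.517 and -0.489. In culture 3 both classes were lower, at -0.14 and -0.20 from their group mean. SLC7A11 and SLC38A1, both AT-rich, have the longest canonical transcripts of these transporters (9645 and 8097 bases), so GC content and length were not told apart in culture 2. In HCT116-WT cultures 1, 2 and 5 the rho with length was 0.425, 0.39 and 0.41. An alternative added after the data were seen left out HCT116-WT culture 3 and HCT116-CD276KO cultures 2 and 3 together. There 0 of the 8 transporters passed the test, and the log2 fold change was -1.34 for SLC1A3 and -0.33 for SLC38A2. In HCT116-WT culture 4, however, the 5 AT-rich transporters were all below their group mean, at -0.15 on average, with a rho of -0.177 with GC content, and they stayed at -0.12 after the trend was removed. The part of the trends in any single difference was not tested beyond these values.

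Ratios between transporters are given by library, and 4 of them were compared on the log2 scale by an exact permutation test, two-sided, in which the smallest possible p is 0.00794. The SLC7 light chains summed to 0.877 to 1.11 times the TPM of SLC3A2 in HCT116-WT and to 0.677 to 0.89 times in HCT116-CD276KO. This is a log2 difference of -0.32 (exact p = 0.0159, Benjamini-Hochberg adjusted over the 4 ratios 0.0635), and 4 knockout cultures were below all HCT116-WT cultures. SLC38A2 was at 7.75 to 8.85 times SLC38A1 in HCT116-WT and at 6.57 to 8.12 times in HCT116-CD276KO, a log2 difference of -0.21 (exact p = 0.0397, adjusted 0.0794). SLC7A11 to SLC7A5 differed by 0.22 (exact p = 0.325, adjusted 0.325) and SLC1A5 to SLC7A5 by 0.10 (exact p = 0.143, adjusted 0.19). None of the 4 ratios passed the adjusted threshold, and each had overlapping groups.

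Other carriers of amino acids at the cell surface and in lysosomes were listed by family. Of 36 such genes 18 reached a mean of 1 TPM, 0 passed the adjusted threshold in limma, and 4 had an unadjusted p under 0.05, a share near the 21.9% of all genes. The groups were apart in 2 of the 18, SLC38A5 and SLC36A1, against 7.61% of all genes. All 18 log2 fold changes were below 0, from -0.43 to -0.01 with a median of -0.21, while 68.1% of all genes tested were below 0 with a median of -0.09. Below 0 were 13 of 18 after median-of-ratios scaling (49.1% of all genes), 12 after quantile normalization (48.5%) and 10 after removal of the length and GC trend (46.9%). SLC38A5, a glutamine and asparagine carrier, had the highest level, with 52.8 ± 2.48 TPM in HCT116-WT and 46.4 ± 2.46 TPM in HCT116-CD276KO (SD, n = 5 each, adjusted p = 0.108 in limma). SLC7A1, the carrier of arginine and lysine, had 43.4 ± 4.00 and 35.0 ± 8.76 TPM (SD, n = 5 each, adjusted p = 0.232 in limma).

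Of 8 mitochondrial and vesicular carriers, all of glutamate but SLC25A44, a carrier of branched-chain amino acids, 4 were tested. In limma 0 passed and 2, SLC25A13 and SLC25A44, had an unadjusted p under 0.05 (21.9% of all genes). The groups were apart in these 2, lower in the knockout, against 7.61% of all genes. The median log2 fold change of the 4 was -0.23. The vesicular carriers SLC17A6, SLC17A7 and SLC17A8 stayed below 1 TPM on average. The mitochondrial glutamate carrier SLC25A22 had 64.1 ± 9.17 TPM in HCT116-WT and 58.4 ± 7.47 TPM in HCT116-CD276KO (SD, n = 5 each, adjusted p = 0.492 in limma). The aspartate and glutamate exchanger SLC25A12 had 23.9 ± 1.92 and 21.9 ± 3.04 TPM (SD, n = 5 each, adjusted p = 0.452 in limma).

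Among 19 tested genes of 22 known from the response to amino acid shortage, 1 passed, a share near the 4.87% of all genes. PHGDH, the first enzyme of serine synthesis from glycolysis, rose from 81.7 to 95.6 TPM in HCT116-WT to 114 to 122 TPM in HCT116-CD276KO, a log2 fold change of 0.41 ± 0.06 (SE, adjusted p = 0.00163 in limma). The groups were apart, and the call held without any single library. The median of the 19 was -0.07, and 5 had an unadjusted p under 0.05, against 21.9% of all genes.

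Of 18 enzymes that make or use glutamate and glutamine 15 were tested and 0 passed, while 6 had an unadjusted p under 0.05, against 21.9% of all genes, and the median was -0.16. The groups were apart in 1 of the 15, against 7.61% of all genes. PYCR1, which makes proline, had 348 ± 40.5 TPM in HCT116-WT and 323 ± 35.1 TPM in HCT116-CD276KO (SD, n = 5 each, adjusted p = 0.496 in limma). OAT, ornithine aminotransferase, had 193 to 237 TPM and 213 to 227 TPM (adjusted p = 0.887 in limma).

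Of 15 genes of cystine use and glutathione 14 were tested and 2 passed, 1 in each direction, against 4.09% lower and 0.781% higher among all genes. GCLC, the catalytic subunit of the enzyme that starts glutathione synthesis, fell from 62.2 to 76.4 TPM in HCT116-WT to 43.95 to 59.3 TPM in HCT116-CD276KO, by 0.38 ± 0.09 (SE) on the log2 scale (adjusted p = 0.0441 in limma). NQO1, a quinone reductase, rose from 322 to 367 TPM to 395 to 433 TPM, by 0.24 ± 0.05 (SE, adjusted p = 0.0214 in limma). Both calls were lost when single libraries were left out. The adjusted p of GCLC was between 0.0501 and 0.116 when any one of the 5 HCT116-WT cultures or knockout culture 2 or 3 was left out. That of NQO1 was between 0.0606 and 0.0616 without HCT116-WT culture 2 or 5 or knockout culture 4.

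Of 13 genes of leucine sensing and mTORC1, all tested, 0 passed in limma and 4 had an unadjusted p under 0.05 (21.9% of all genes), with a median of -0.10. The groups were apart in 1 of the 13, against 7.61% of all genes. RHEB, the small GTPase that switches mTORC1 on, had 173 ± 16.7 TPM in HCT116-WT and 161 ± 8.16 TPM in HCT116-CD276KO (SD, n = 5 each, adjusted p = 0.421). LARS1, the leucyl-tRNA synthetase, had 146 ± 19.4 and 116 ± 23.3 TPM (SD, n = 5 each, adjusted p = 0.187 in limma).

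The SLC1 and SLC38 carriers run on the sodium gradient that the sodium pump keeps up. Of 8 pump genes 6 were tested and 2 passed, both lower in the knockout, against 4.09% of all genes. Both encode FXYD proteins, small membrane proteins that attach to the pump, and no other FXYD gene was listed. The 2 genes lie close together on chromosome 19 (chr19:35115823-35124324 and chr19:35154730-35169881, both on the forward strand). FXYD3 was at 4.57 to 6.43 TPM in HCT116-WT and at 1.25 to 1.93 TPM in HCT116-CD276KO, and fell by 1.35 ± 0.12 (SE) on the log2 scale (adjusted p = 3.97e-05 in limma). FXYD5 was at 88.9 to 103 TPM and at 54.8 to 62.9 TPM, and fell by 0.71 ± 0.06 (SE, adjusted p = 5.22e-05 in limma). Both calls held without any single library and after removal of the length and GC trend. The 4 tested pump subunits themselves lay between -0.23 and 0.04 and did not pass.

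The plot of the related gene lists places these 5 calls beside the uncalled genes. FXYD3, with a log2 fold change of -1.35, was the nearest to SLC1A3 in size among the genes of these lists.

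The tested genes on both sides of SLC1A3 on chromosome 5 were looked at over 3 genes in each direction. On the side of its start they were NADK2, a mitochondrial NAD kinase (26.1 and 21.5 TPM, log2 fold change -0.27, adjusted p = 0.0635 in limma), SKP2, a ubiquitin ligase subunit (log2 fold change -0.03) and SPEF2 (-0.02). On the other side they were NIPBL, the cohesin loader (28.4 and 23.0 TPM, -0.30, adjusted p = 0.337), the pseudogene RPS4XP6 (-0.03) and ENSG00000270558 (0.14). None of these 6 neighbours passed the test.

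The genes whose levels were most like those of SLC1A3 were ranked by Pearson's r of log2(TPM + 1) across the 10 libraries, as a description. Over all libraries, where the difference between the groups dominates, the first 5 were ENSG00000250920 (r = 0.984), EMP1 (0.984), PPARG (0.984), PKIB (0.983) and EHF (0.982). All 5 had a lower mean in the knockout. EMP1, an epithelial membrane protein, had a mean of 216 TPM in HCT116-WT and 75.1 TPM in HCT116-CD276KO, and EHF, an epithelial transcription factor, 67.8 and 22.8 TPM. ENSG00000250920 had 23.8 and 13.6 TPM, PPARG 43.3 and 20.7 TPM, and PKIB 49.4 and 16.8 TPM. With the group means taken off, the first 5 were SH3TC2 (0.97), ARRDC3 (0.968), PHKA1P1 (0.957), IL10RB (0.951) and LEPR (0.94). On that measure SLC1A3 ran with SLC1A1 (0.82), SLC38A1 (0.758), SLC7A11 (0.729) and SLC38A2 (0.716), and opposite to SLC3A2 (-0.674) and SLC1A5 (-0.406). SLC1A4 (0.365) and SLC7A5 (-0.05) were in between. The libraries differed in their trends with GC content and transcript length, as given above, and the AT-rich members are those with the high values. The part of the trends in these correlations was not tested.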

How the data were processed

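Per the labels and the study's methods, strand-specific poly(A) libraries of 5 HCT116-WT and 5 HCT116-CD276KO cultures were sequenced from one end. The authors aligned them to hg38 with STAR 2.5.2b and quantified an Ensembl annotation with RSEM 1.3.0 and featureCounts 1.5.1. The values are the TPM that the authors deposited, with 2 decimals. Which program gave the TPM is not given in the sources used here. Each library summed to between 999999 and 1000000 TPM, and the protocol gives only an average depth over all samples, so the reads behind a single value are unknown and no counting interval is given.

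All 13581 genes whose mean reached 1 TPM were compared on log2(TPM + 1) with limma 3.58.1 in R 4.3.3, modelling variance as a function of level, and p-values were adjusted over all of them (Benjamini-Hochberg). A fold change on this scale understates that of low genes. Levels, ratios and the exact permutation tests were computed in Python 3.11.15 with scipy 1.17.1, and figures with matplotlib 3.10.9. Positions, transcript lengths and GC contents came from GENCODE 44 on hg38, and sequences from RefSeq on GRCh38.p14. For the alternative without length and GC trends, each library's deviation from the gene mean was fitted on both by local regression with a span of 0.3, for 13472 genes. The procedure was tested on simulated data that held no trend with length or GC content. How well the removal takes out such trends was therefore not tested.

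The transporters and lists were chosen with earlier results of these data known. Named were the 10 transporters and CD276. Of each list, the genes with an adjusted p under 0.05 were named, or otherwise the 2 with the highest mean. Other transporters were named by level, and further carriers where their groups were apart. The 3 tested neighbours of SLC1A3 on each side and the 5 genes most like SLC1A3 on each measure were named too. Alternatives were another pseudocount (0.1), other filters (above 0 TPM in any library, or a mean of at least 5 TPM), median-of-ratios scaling, quantile normalization, the replicate number as a block, the length and GC removal, and each library left out in turn. For the ratios 1 TPM was added to both terms. The values of 1 listed enzyme are not reported here.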

Additional observations from a re-analysis of the deposited data

Results flagged for a closer look

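In 40 groups of 5 values, the lowest or highest library was compared with the nearest other library of its group, and in 4 of them the gap took more than 0.71 of the range of the group. Chance gives about 1 in 20 such groups, or 2 of 40.

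SLC1A3 in HCT116-CD276KO had its lowest value, 3.42 TPM, in culture 2, and the next was 5.08 TPM. SLC3A2 in HCT116-CD276KO had its highest value, 329 TPM, in the same culture 2, and the next was 283 TPM. With the length and GC trends removed, the widest gap took 0.41 and 0.348 of the range in these groups, so that neither stood apart any more. SLC1A4 in HCT116-WT had its highest value, 3.06 TPM, in culture 1, with 2.16 TPM as the next, and the gap took 0.698 of the range after the removal. The ratio of SLC1A5 to SLC7A5 in HCT116-CD276KO was highest in culture 3, at 0.597, with 0.562 as the next.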

How the results depend on the processing

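The log2 fold changes of SLC1A1, SLC1A4, SLC1A5, SLC7A5, SLC3A2, SLC38A1 and SLC38A2 kept their sign in each alternative run, and that of SLC1A3 lay between -1.58 and -1.28. That of SLC7A11 lay between -0.113 and 0.102 with a library left out and turned to 0.074 after median-of-ratios scaling, 0.118 after quantile normalization, 0.167 after removal of the length and GC trend, 0.174 with the 3 libraries of the strongest trends left out, and 0.058, 0.004, 0.102 and 0.047 without HCT116-WT culture 1 or 2 or HCT116-CD276KO culture 2 or 3. The sizes were less stable than the signs. With the length and GC trend removed, SLC1A5 went from -0.143 to -0.051, SLC7A5 from -0.238 to -0.092 and SLC38A1 from -0.324 to -0.108. Their 95% intervals then held 0. SLC38A2 also came nearer to 0, while SLC1A1, SLC1A4 and SLC3A2 moved away from it. Beside 0 of 8 transporters called, there was 1 after quantile normalization (SLC1A1), 3 after removal of the length and GC trend, and 0 to 1 with a library left out.

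Over all genes, 662 were called, 343 to 857 with a library left out and 1299 with the length and GC trend removed. The calls were lower in the knockout in 84.0% of cases, but in 66.2% after median-of-ratios scaling, 60.3% after quantile normalization and 53.8% with the trend removed, and the median over all genes tested moved from -0.0857 to 0.00372, 0.00726 and 0.0127. The replicate numbers did not pair the cultures, as the deviations of cultures with the same number correlated at 0.087, -0.181, 0.037, -0.027 and 0.119, and 1 HCT116-WT culture of 5 and none of HCT116-CD276KO correlated best with its own number. With a replicate block 378 genes were called, 1 of the 8 transporters (SLC38A2), 1 glutamate or glutamine enzyme and 0 cystine or glutathione genes.

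Of the amino acid response genes 3 were called with the length and GC trend removed, 2 with the 3 libraries left out and 1 to 2 with any one left out. Of the glutamate and glutamine enzymes 1 was called after median-of-ratios scaling, 2 with the trend removed and 0 to 1 with a library left out. Of the cystine and glutathione genes 1 was called with all genes above 0 TPM, after median-of-ratios scaling, after quantile normalization and with the 3 libraries left out, 3 with the trend removed, and 0 to 2 with one left out. Of the sodium pump genes 1 was called at a mean of at least 5 TPM, where FXYD3 was not tested. The other transporters and the leucine genes had 0 to 1 calls with a library left out.

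The light chains to SLC3A2 passed at -0.32 with 1 TPM added to both terms and at -0.22 with the trend removed, and ranged from -0.37 to -0.27 with a library left out, passing without HCT116-WT culture 3 or HCT116-CD276KO culture 2. SLC38A2 to SLC38A1 passed at -0.21 and -0.29 in the same settings, and ranged from -0.25 to -0.17, passing without HCT116-CD276KO culture 2. SLC1A5 to SLC7A5 ranged from 0.0625 to 0.141 and SLC7A11 to SLC7A5 from 0.10 to 0.39, each past the threshold at its upper end. The cause was not tested for any of these changes. TPM do not keep the depth of a library, so no detection limit is given for SLC1A2 and other genes near 0.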
